A study of Arabidopsis thaliana with 12 samples.

Results

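The genes described here are 68 Arabidopsis thaliana genes whose transcript signal was clearly lower in the toc120 mutant than in wild type (WT). They were chosen by the measured values themselves. After quantile normalisation of the 12 arrays, every toc120 array had to lie below every WT array, the WT mean had to be at least 1.5 times the toc120 mean, and the WT mean had to be at least 0.2. Only probes that the platform annotation ties to a single gene were considered, 692 of the 3439 probes, which stand for 691 genes. The criteria were met by 76 genes, of which 8 were left out by name. The lower signal is therefore the basis of the choice and not a result, and the members' own differences between the genotypes are described without a test.

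Total RNA was profiled on 6 arrays of toc120 and 6 of WT, both of the Columbia 0 accession, with no further treatment named in the labels. The sources used here do not state the allele, tissue, plant age or growth conditions. Whether samples within a genotype were grown apart is also not stated, so any p-value measures the spread between these samples only, which may be technical. Most chloroplast proteins are encoded in the nucleus, made in the cytosol with a transit peptide, and imported through the TOC complex of the outer envelope and the TIC complex of the inner one. Toc120 is a GTPase receptor of the TOC complex and belongs to the Toc159 receptor family. Loss of import receptors is known to change the levels of nuclear transcripts as well as of imported proteins. No 1-gene probe carries TOC120, so the genotype labels could not be checked against it.

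As deposited, the WT arrays had totals from 2641 to 3553 and medians from 0.151 to 0.157, and the toc120 arrays totals from 2688 to 3686 and medians from 0.188 to 0.278. Exact zeros made up 13.5% to 17.3% of the values on a WT array and 11.8% to 16.5% on a toc120 array. Intensities below are quantile-normalised unless they are called deposited. In RNA of whole samples, fewer cells of a type and less RNA per cell cannot be told apart.

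The median member had a WT mean 2.19 times its toc120 mean, and the ratios ran from 1.53 to 19.4. Of the 68 genes, 4 had a ratio of 4 or more, 9 lay from 3 to under 4, 31 from 2 to under 3, and 24 under 2. A lower signal on every mutant array follows from the rule. Relative to its own WT mean, the median member stood at 0.446 to 0.468 on the toc120 arrays and at 0.937 to 1.04 on the WT arrays. Arrays 1 and 2, 3 and 4, and 5 and 6 of a genotype were treated as number pairs, and the median ratio was 2.16, 2.16 and 2.14 in these 3 pairs. Single genes varied more. In 48 members the ratio was at least 1.5 in all 3 number pairs. The other 20 include AT4G12270, listed at 0 on toc120 arrays 3 and 4, so its ratio for that pair is undefined. In its other pairs the ratio was 8.8 and 18.2. The rest of the 20 dropped below 1.5 in at least 1 pair, with 1.22 as the lowest value. The coefficient of variation over the pair means had a median of 12.6% in WT and 14.6% in toc120.

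**Figure D1:**
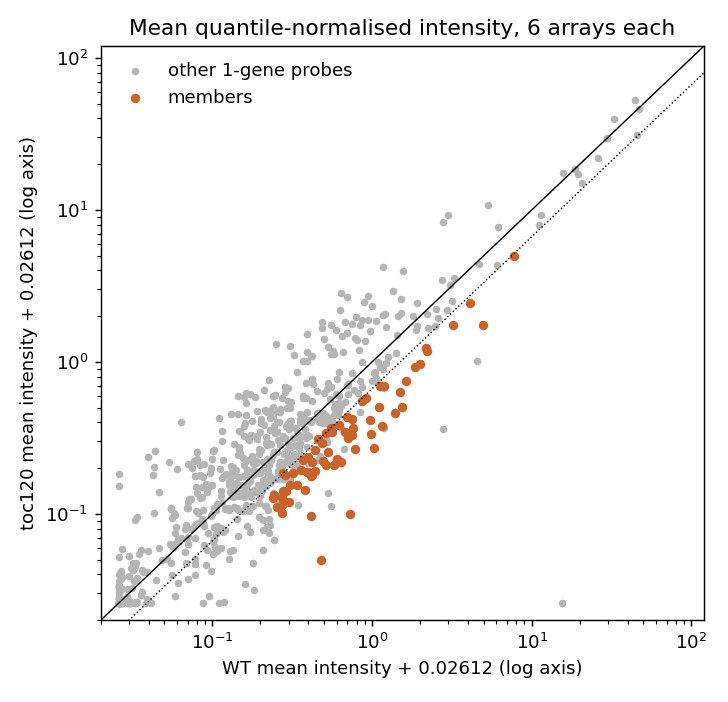
Mean intensity of each 1-gene probe in WT (horizontal) and toc120 (vertical), 6 arrays each, with 0.02612 added and both axes logarithmic. Orange points are the 68 members, the solid line marks equal means and the dotted line a ratio of 1.5 of the plotted values. The members lie below the dotted line or close to it, since the rule chose them there.

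Among all 3439 probes, 16.3% had every toc120 array below every WT array after quantile normalisation. The scaling matters for the size of the difference, because the typical probe was brighter in toc120 before scaling. In the deposited intensities 22 members still had every toc120 array below every WT array, against 6.51% of all probes, and 46 overlapped. The deposited WT mean was above the toc120 mean in 66 members and at least 1.5 times as high in 40, with a median ratio of 1.57. When all arrays were given equal medians, 65 members stood apart, against 18% of all probes, and the median ratio was 2.39. The 22 members apart as deposited also stood apart with equal medians, so the count under all 3 scalings is the deposited count again. The share of all probes apart under all 3 was not counted. Of these 22 genes, 21 also kept a ratio of at least 1.5, among them AT4G12270, AT1G73120, PRA1.B3, AT2G46300, CCL, CYN, GLR2.7 and CML30. In 2 members, AT5G17280 and AT3G52070, the deposited toc120 mean was marginally the higher one (ratios 0.994 and 0.989).

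As a description only, limma with neighbouring arrays averaged called 60 of the 68 members lower, where 16.9% of all probes were called lower. Over the 12 arrays as separate samples it called 68, where 24.8% were, and on the deposited intensities with neighbours averaged it called 16, where 5.5% were. The rule used the same contrast, so these counts do not bear on the members. The 8 members not called with neighbours averaged were AT5G59400, AT5G22340, AT5G62360, AT1G70180, AT4G24750, AT5G63390, AT1G67820 and AT2G28540.

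The annotation gives a symbol to 9 members and only a locus code to the rest. Roles stated below are background knowledge of the Arabidopsis loci. They are given for 41 genes and left out for 27. The groups of roles were formed with the values known, and no group is set against another. Since genes were left out by name and 27 members have no stated role, no group's size or highest ratio covers all such genes.

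The group of general metabolism held 10 members with a median ratio of 2.24, and it contains the largest ratio of all. AT4G12270, of the copper amine oxidase family that oxidises amines and releases hydrogen peroxide, was at 0.343 to 0.605 on the WT arrays (median 0.454). In toc120 it was listed at 0 on arrays 1, 3 and 4 and at 0.0477, 0.0433 and 0.0493 on arrays 2, 5 and 6. The highest toc120 array thus lay far under the lowest WT array, although a listed 0 may be a failed estimate and the ratio of 19.4 rests on such values. CYN encodes cyanase, which breaks down cyanate to ammonia and carbon dioxide. Its intensity was 0.640 to 0.894 in WT (median 0.760) and 0.140 to 0.321 in toc120 (median 0.248), a ratio of 3.13 that ran from 2.55 to 3.95 over the number pairs. AT4G33540, of the metallo-beta-lactamase family, was at 0.740 to 1.39 in WT (median 0.839) and 0.240 to 0.352 in toc120 (median 0.326). Both genes had wide gaps between the genotypes, and both stood apart in the deposited intensities too.

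AT4G29120, a member of the beta-hydroxyacid dehydrogenase family, was among the least variable in the mutant, with 0.434 to 0.562 in WT (median 0.498) against 0.166 to 0.206 in toc120 (median 0.181). Its ratio was 2.66 overall and 2.47 to 2.85 over the number pairs. Other enzymes in the group had smaller ratios. AT4G08280, with a thioredoxin fold, had 2.3, AT1G30700, a berberine bridge enzyme-like oxidase, 2.19, and AT2G44530, a phosphoribosyl pyrophosphate synthetase that supplies nucleotide synthesis, 1.76. AT4G27250, a Rossmann-fold reductase, had 1.74, AT1G50510, a glycosylase of pseudouridine monophosphate breakdown, 1.64, and AT4G25290, with a DNA photolyase domain, 1.59. AT1G30700 and AT4G27250 were uneven, at 1.45 to 3.75 and 1.25 to 2.14 over the number pairs.

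The plastid group held 9 members, with a median ratio of 2.25 and none above 2.93. The highest was AT5G03900, an iron-sulfur cluster assembly type protein of the plastid, at 0.191 to 0.330 in WT (median 0.296) and 0.0720 to 0.111 in toc120 (median 0.097). AT2G39000, an acetyltransferase of the GNAT family that modifies plastid proteins, was at 0.198 to 0.266 (median 0.223) against 0.029 to 0.117 (median 0.0939), a ratio of 2.68. HEMA3, an isoform of glutamyl-tRNA reductase at the entry to chlorophyll and haem synthesis, was at 0.686 to 1.13 (median 0.967) against 0.282 to 0.518 (median 0.379). The ratio of HEMA3 was 2.42 and varied from 1.55 to 3.49 over the number pairs.

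The lipid-associated fibrillins of plastoglobules and thylakoids were represented by AT2G46910 (ratio 2.44) and AT2G35490 (ratio 2.1), both with WT means close to the level of 0.2 that the rule asks for. AT3G15140, a plastid exoribonuclease that trims ribosomal RNA, had a ratio of 2.25, from 0.929 to 1.27 in WT (median 1.01) to 0.319 to 0.562 in toc120 (median 0.531). AT4G24750, a rhodanese domain protein, had 1.95. THIC, which makes the pyrimidine part of thiamin in the plastid, had 1.64, and AT3G58610, the ketol-acid reductoisomerase of branched-chain amino acid synthesis, 1.6. In the deposited intensities 1 of the 9, AT5G03900, stood apart, where 6.51% of all probes did. A deposited ratio of 1.5 or more was kept by 5 of the 9.

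The group of mitochondrion and organelle RNA held 3 members. Genes were left out by name and 27 members have no stated role, so this count does not measure how many such genes were lower. AT4G21170, a pentatricopeptide repeat protein of the family that processes organelle transcripts, was at 0.877 to 1.43 in WT (median 1.103) and 0.296 to 0.388 in toc120 (median 0.352). Its ratio of 3.19 was steady, at 3 to 3.49 over the number pairs, and the lowest WT array was more than 1.5 times the highest toc120 array. AT4G39690 encodes MIC60 of the MICOS complex, which shapes the inner mitochondrial membrane. It was at 3.65 to 4.67 (median 4.05) against 2.28 to 2.58 (median 2.42), and its ratio was 1.68 after quantile normalisation and 1.64 as deposited. AT4G08940, with a PORR domain found in organelle RNA-binding proteins, had a ratio of 1.78.

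Signalling genes made up 6 members with a median ratio of 2.15. GLR2.7, a glutamate receptor-like channel of the plasma membrane, was at 0.394 to 0.717 in WT (median 0.605) and 0.168 to 0.247 in toc120 (median 0.195), a ratio of 2.82. Its close relatives may share signal on the probe. CML30, a calmodulin-like calcium sensor, was at 1.19 to 1.75 (median 1.42) against 0.582 to 0.632 (median 0.612), a ratio of 2.4, and the 6 toc120 arrays were almost level. Both calcium-linked genes stood apart in the deposited intensities as well, with ratios of 1.86 and 1.81. The receptor-like kinase AT2G39360 of the CrRLK1L family had a ratio of 2.04, and the Raf-like kinase AT2G31800 had 1.62. The protein phosphatases of type 2C, AT4G33500 and AT1G67820, had 2.26 and 1.68, which shrank to 1.45 and 1.1 in the deposited intensities.

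Membrane traffic and transport gave 5 members. PRA1.B3 and PRA1.B6 encode prenylated RAB acceptors, membrane proteins that act on RAB GTPases in vesicle traffic. PRA1.B3 was at 0.342 to 0.426 in WT (median 0.397) and 0.0181 to 0.112 in toc120 (median 0.0776), a ratio of 5.51, while PRA1.B6 had a ratio of 1.88, from 1.61 to 2.62 (median 2.18) to 0.925 to 1.54 (median 1.07). The toc120 values of PRA1.B3 were spread widely, and its ratio was 4.14 to 13 over the number pairs. AT1G25500, a choline transporter-like protein, was the most even of the group, with a ratio of 2.05 and 1.98 to 2.09 over the number pairs. AT4G40080, an ENTH/ANTH clathrin adaptor, had 2.03 and AT4G00170, of the VAP family at membrane contact sites, 1.56. The deposited ratios of these last 3 were 1.31, 1.39 and 1.01.

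Cell wall and glycan genes numbered 3 among the members with a stated role, and genes of this kind were also among the names left out. AT5G62360, of the pectin methylesterase inhibitor family, was at 0.189 to 0.298 in WT (median 0.263) and at 0, 0.103, 0.146, 0.131, 0.130 and 0.180 on toc120 arrays 1 to 6. The listed 0 widens its ratio of 2.18. AT5G63390, of the O-fucosyltransferase family, had a ratio of 1.72. AT4G19900, of the alpha-1,4-glycosyltransferase family, was at 6.20 to 8.55 (median 8.18) against 4.38 to 5.65 (median 4.96). Its ratio of 1.55 after quantile normalisation was 1.74 as deposited. With equal array medians it was 2.61, and the gene stood apart under all 3 scalings.

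Of the 5 genes grouped under nucleus, RNA and translation, CCL was highest in ratio. CCL (CCR-like) is a transcript under circadian control whose messenger RNA is short-lived. This describes the transcript and not a role of its protein. It was at 4.25 to 5.75 in WT (median 4.77) and 1.42 to 2.07 in toc120 (median 1.71), a ratio of 2.86 with 2.65 to 3.03 over the number pairs and 2.66 in the deposited intensities. AGL54, a MADS-box transcription factor, had a ratio of 2.55, from 0.292 to 0.475 in WT (median 0.406) to 0.0896 to 0.214 in toc120 (median 0.152). AT4G30680, with an MA3 domain like that of initiation factor eIF4G, had 2.35, AT5G11010, of the CLP1 family of pre-mRNA cleavage factors, 1.84, and AT2G28540, with an RNA-recognition motif, 1.59.

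**Figure D2:**
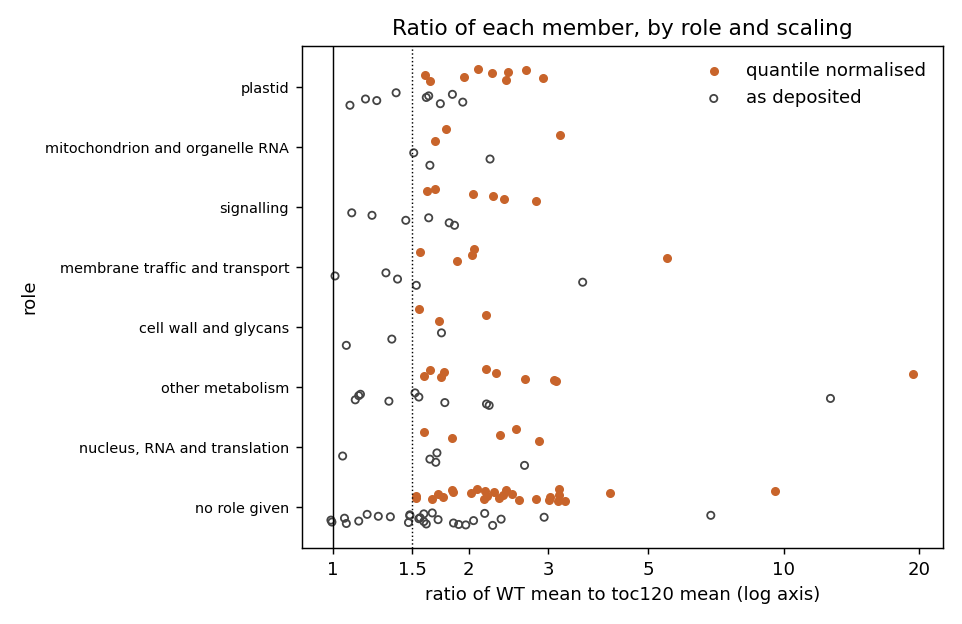
Ratio of WT mean to toc120 mean (horizontal, logarithmic) for each member, 1 row for each group of roles. Filled points are quantile-normalised values, open points are deposited values, the solid line marks 1 and the dotted line 1.5. Every filled point lies right of the dotted line by the rule, while 28 of the 68 open points lie left of it.

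The 27 genes without a stated role had a median ratio of 2.34, and 10 of them were among the 20 largest. AT1G73120 was at 0.633 to 0.876 in WT (median 0.656) and 0.00872 to 0.124 in toc120 (median 0.0746), a ratio of 9.55. Its toc120 arrays differed among themselves, so the ratio ran from 5.37 to 32.8 over the number pairs, yet no toc120 array came near the WT values. AT2G46300 was at 0.886 to 1.14 (median 0.996) against 0.151 to 0.369 (median 0.240), a ratio of 4.11. AT3G26580 was at 1.26 to 1.70 (median 1.52) against 0.393 to 0.539 (median 0.490), and AT5G66090 at 1.11 to 1.46 (median 1.43) against 0.353 to 0.458 (median 0.449). These 4 genes stood apart in the deposited intensities, with ratios of 6.89, 2.94, 2.36 and 2.26.

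AT1G16080 was at 0.548 to 0.745 in WT (median 0.593) and 0.142 to 0.306 in toc120 (median 0.164), and AT4G23110 at 0.482 to 0.686 (median 0.557) and 0.0835 to 0.263 (median 0.189). AT5G59060 was at 0.2502 to 0.452 (median 0.339) against 0.0871 to 0.180 (median 0.113), and AT5G55570 at 0.320 to 0.480 (median 0.379) against 0.0613 to 0.210 (median 0.150). In these 4 the ratios were 3.17, 3.03, 3.01 and 2.58. Listed zeros entered for 2 more. AT5G59400 was at 0.163 to 0.376 in WT (median 0.232) and at 0.0236, 0, 0.162, 0.0949, 0.0935 and 0.0797 on toc120 arrays 1 to 6. AT5G22340 was at 0.171 to 0.338 in WT (median 0.225) and at 0.0972, 0, 0.0754, 0.0866, 0.167 and 0.0995 on these arrays. In both genes the highest toc120 array nearly reached the lowest WT array.

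**Figure D3:**
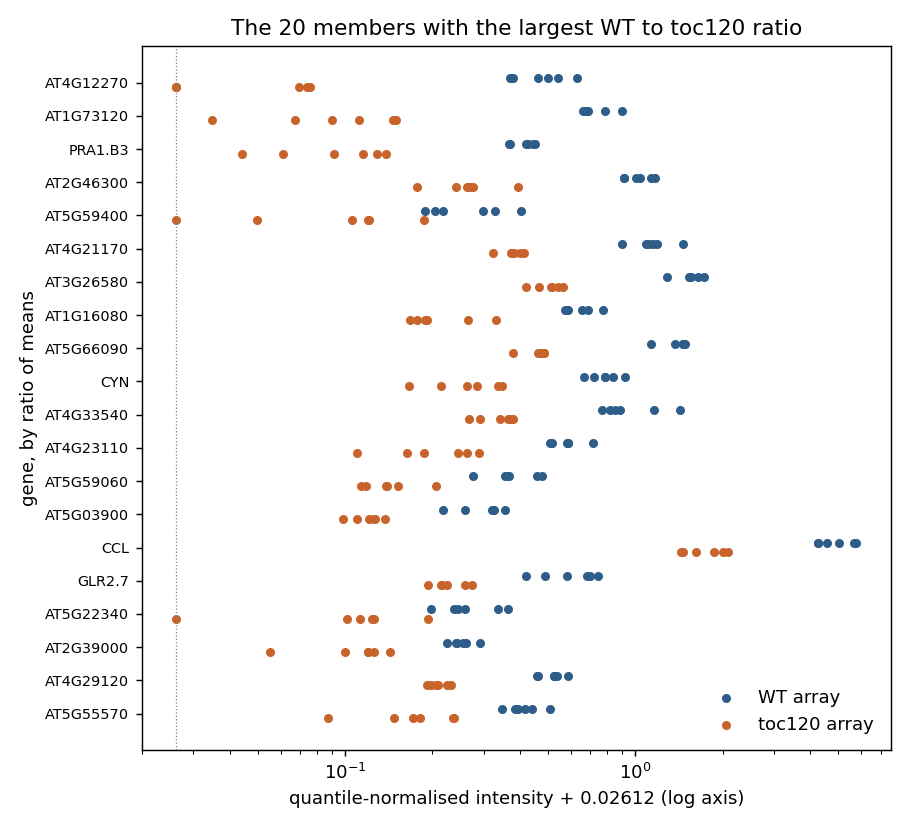
Intensity of the 20 members with the largest ratio of means on each of the 6 WT arrays (blue) and 6 toc120 arrays (orange), with 0.02612 added and a logarithmic axis. The dotted line marks a listed 0, reached on 3 toc120 arrays by AT4G12270 and on 1 each by AT5G59400 and AT5G22340. WT and toc120 points are separate in every row, as the rule demands.

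The other genes without a stated role had ratios of 2.5 and below. AT3G06870, AT1G28150, AT3G20490, AT4G38490, AT2G18920, AT3G44020, AT1G70180, AT5G19050, AT1G13990 and AT2G38070 lay between 2.5 and 2.02. AT2G26680, AT1G51080, AT4G27510, AT3G09250, AT5G49590, AT5G17280 and AT3G52070 lay between 1.85 and 1.53. Of the first set, AT4G38490 and AT2G18920 stood apart in the deposited intensities, at deposited ratios of 1.59 and 1.48.

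At the edges of the rule the choice was narrow. By ratio, AT3G52070 (1.53) and AT5G17280 (1.534) were just inside and AT1G21660 (1.497) and AT4G29890 (1.454) just outside. By WT mean, AT2G35490 (0.2145) and AT2G38070 (0.2155) were inside, while AT2G32640 (0.1997) and AT4G24840 (0.1984) were outside although their ratios were 4.076 and 2.453. By separation, the lowest WT array was 1.007 and 1.009 times the highest toc120 array in AT5G59400 and AT4G27510. It was 0.9976 and 0.9972 times in AT2G22890 and AT3G11960, which were left out. In all, 33 further genes met the level and the ratio but overlapped, 13 stood apart with a WT mean that was too low, and 7 stood apart with a ratio that was too small. Of the members, 12 had less than a factor of 1.1 between the lowest WT and the highest toc120 array, and 26 had at least 1.5.

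Signal outside the rule was available for 7 members, which the annotation also lists on a second probe together with 2 or 3 other genes. A shared probe belongs to no single gene, and it took no part in the choice. With neighbouring arrays averaged, limma called 0 of these 7 shared probes lower, 1 higher and 6 not at all. Of all probes, 31.5% were called in either direction and 16.9% were called lower. Over the 12 arrays limma called 0 lower, where 24.8% of all probes were. An unadjusted limma p under 0.05 for a lower value was found in 0 of the 7, with no share over all probes at hand. So few probes say little about the members. The probe shared by PRA1.B3 was at 0.263 ± 0.089 in WT and 0.222 ± 0.079 in toc120 (SD, n = 3 pair means), with a log2 difference of -0.22 (SE 0.36, limma adjusted p = 0.701). Those shared by AT2G35490, AT2G38070 and AT1G67820 had log2 differences of -0.11, 0.11 and 0.21 (limma adjusted p = 0.822, 0.809 and 0.695). The genotypes overlapped on each of these 4 probes. On the members' own probes the rule allows no overlap, so the 2 kinds of probe cannot be compared in this.

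On the probe shared by AGL54 the WT mean was 0.0987 ± 0.020 and the toc120 mean 0.124 ± 0.037, and the log2 difference of 0.26 did not pass (limma adjusted p = 0.452). It passed at 0.68 as deposited (limma adjusted p = 0.0215). The exception was the probe that AT5G63390 shares with 2 other genes: it rose from 0.265 ± 0.009 in WT to 0.675 ± 0.117 in toc120 (log2 difference 1.26 with an SE of 0.14, limma adjusted p = 0.00375). All 6 toc120 arrays were above all WT arrays there, whereas on its own probe AT5G63390 was lower in toc120, at 0.130 to 0.261 (median 0.1997) against 0.265 to 0.412 (median 0.354). Without numbers 5 and 6 the rise had a limma adjusted p of 0.0712. The probe shared by AT2G46910 was listed at 0 on all arrays.

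**Figure D4:**
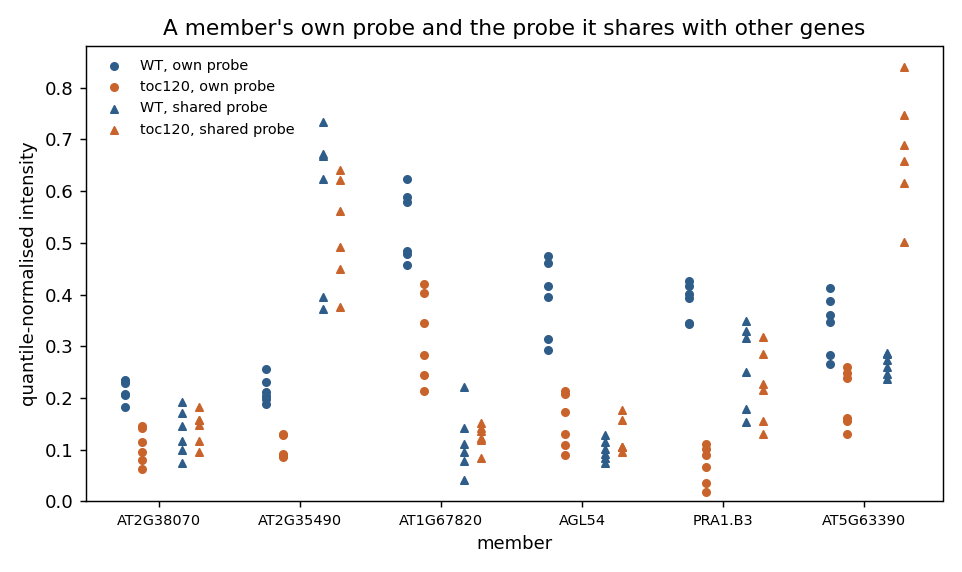
Intensity on the 6 WT (blue) and 6 toc120 (orange) arrays for members with a second, shared probe. Circles are the member's own probe and triangles the probe it shares with 2 or 3 other genes. The shared probe of AT2G46910, at 0 throughout, is not drawn. Circles separate by genotype in each member by the rule, and triangles separate for AT5G63390, in the opposite direction.

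Family members that bear the same symbol stem and have a 1-gene probe of their own were not called lower. AGL103 and AGL26, MADS-box relatives of AGL54, had log2 differences of -0.31 and 0.13 (limma adjusted p = 0.337 and 0.543). CML41, another calmodulin-like protein, rose from 0.402 ± 0.023 to 0.692 ± 0.148 (log2 difference 0.72 with an SE of 0.18, limma adjusted p = 0.037). With the number pair as a block this rise did not pass, at a limma adjusted p of 0.0828. It did not pass without numbers 3 and 4 (0.219) or without 5 and 6 (0.23) either. The PRA1 probes were both members, and no other GLR or HEMA gene had a 1-gene probe.

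Wider classes of function could be formed only from symbols and synonyms, and keywords matched 40 of the 692 1-gene probes. The members among them were PRA1.B3 and PRA1.B6, the entire class of vesicles and cytoskeleton. Over all probes, 16.9% were called lower and 31.5% in either direction. Of the 38 other probes matched, 3 were called lower, 4 higher and 31 not. The lower ones were FATB, the plastid acyl-ACP thioesterase (log2 change -1.46, limma adjusted p = 0.00596), the endoglucanase-family gene GH9B12 (-2.32, 0.00562) and chr31 (-0.22, 0.0481). GH9B12 is on the list of names left out, so it could not be a member. The higher ones were GH9B16 (2.68, 0.00431), TPP2, a tripeptidyl peptidase (1.29, 0.00258), AT5G58330 of the redox class (1.05, 0.00731) and CCS, the copper chaperone of superoxide dismutase (0.87, 0.0134). Of these 7 calls, that of TPP2 alone held without each of the 3 number pairs in turn. FATB also did not pass with neighbouring numbers as a random block (0.146), and chr31 under several alternatives.

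By locus code the members fell on all chromosomes, 10 on chromosome 1, 15 on chromosome 2, 10 on chromosome 3, 18 on chromosome 4 and 15 on chromosome 5. The 1-gene probes numbered 173, 124, 130, 120 and 143 on these chromosomes. Turned round and with no names left out, the same criteria were met by 93 1-gene probes that were higher in toc120. The like count of lower genes, before names were left out, was 76.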

How the data were processed

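A single table of 12 arrays (6 WT, 6 toc120) was used. The intensity values were deposited by the authors on a linear scale of 0 to 100, with 1 value per probe and sample. Background correction, scaling, array type and dyes are not stated in the sources at hand, and no background values were used, so precision is limited by the number of arrays. Gene names came from the platform annotation, matched by gene ID to the RefSeq table of TAIR10.1 (690 of 692 1-gene probes found). That table holds symbols and synonyms but no descriptions, so the planned keyword classes matched few genes and role groups were added afterwards.

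Arrays were quantile-normalised, since totals and medians differed. The test was limma 3.58.1 in R 4.3.3 (lmFit, eBayes, two-sided) on log2(value + 0.0261), with Benjamini-Hochberg adjustment over 3439 probes and a threshold of 0.05. The constant is percentile 5 of positive deposited values. Neighbouring numbers of a genotype were averaged first, which left 3 values per genotype. Spearman's rho across probes was 0.952 to 0.975 for such neighbours and 0.91 to 0.946 for the other arrays of a genotype. Log2 differences are toc120 minus WT from this fit, and ratios are of plain means. The limma fit with neighbours averaged was run on simulated data, without the added constant. The rule, the ratios and the scalings were not tested in this way.

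Deviations of equal number pairs correlated between genotypes with r of 0.38, 0.308 and 0.233 across probes. The numbers therefore appear to pair the samples, on the data's evidence alone, and a fit with the pair as a block was an alternative. Members, lists and tests were chosen with earlier results of these data known. The rule for naming was to name every member and give array values for the 20 largest ratios and for each group these miss. Further array values were picked after they were seen. Plots used matplotlib 3.10.9 (Python 3.11.15).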

Additional observations from a re-analysis of the deposited data

Results flagged for a closer look

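In 4 of 168 groups of 6 arrays, 1 array lay far from the others by Dixon's criterion for the gap to the nearest array, and chance marks about 1 in 20 groups. AT5G66090 was low on WT array 1, at 1.11 against 1.34 to 1.46 on the others, and on toc120 array 6, at 0.353 against 0.435 to 0.458. AT4G27510 was low on WT array 1, at 0.28 against 0.41 to 0.475, which brings it close to the highest toc120 array. The remaining case is chr31, which is no member, high on WT array 2 at 0.675 against 0.57 to 0.596.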

How the results depend on the processing

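The count of members depended on scaling and thresholds. The rule found 22 genes in the deposited intensities, 21 of them members, and 86 with equal array medians, 65 of them members. A ratio of 2 left 44 genes and a WT mean of 0.5 left 36, while dropping the level gave 81. The median ratio of the 68 members was 1.57 as deposited and 2.39 with equal medians, and 2.16 to 2.22 without 1 number pair. On the log2 scale all 68 differences were negative under each of the alternatives run (scaling, constant and left-out number pairs). With the larger constant or without a number pair the rule fixes this sign beforehand, so only the other scalings could have changed it. The highest difference was -0.01, as deposited. The median difference was -1.06, against -0.64 as deposited and -0.65 with the larger constant of 0.24. Over all probes 1084 were called, 581 lower and 503 higher. As deposited 189 were lower and 710 higher. Without 1 number pair the counts were 331 to 633 in all, 161 to 338 lower and 170 to 295 higher, with 2 values per genotype. Over 12 arrays with the sample number as a replicate block 1688 were called, 891 lower and 797 higher. With neighbours averaged and the pair as a block 979 were called, and among the calls printed above it changed those of CML41 and chr31 (0.0784). The difference of chr31 turned to 0.30 as deposited and did not pass. The shared probe of AGL54 passed over the 12 arrays with the sample number as a block (0.0209). The causes were not tested.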

Other observations

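APTX, which is no member and was singled out after its values were seen, was at a deposited intensity of 99.37 on WT array 1 and listed at 0 on the other 5 WT arrays and on all 6 toc120 arrays.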
